A study of Mus musculus with 20 samples.

Results

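The genes described here are the Wnt ligands, their receptors and co-receptors, their secreted antagonists, and 3 genes that act at the end of the pathway, Axin2, Lef1 and Tcf7, which are none of the first kinds. They were chosen by gene symbol alone: every listed gene whose symbol belongs to the Wnt, Frizzled (Fzd), Sfrp, Dkk or Ror families, or is Lrp5, Lrp6, Wif1, Axin2, Lef1 or Tcf7. This gave 45 of the 38355 listed genes: 19 ligands, 10 Frizzled receptors, 4 co-receptors or alternative receptors, 9 secreted antagonists and the 3 others.

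Wnt proteins are secreted, lipid-modified signals that bind Frizzled receptors on nearby cells. With the co-receptors Lrp5 or Lrp6 this binding stabilises beta-catenin, which enters the nucleus and acts with Tcf/Lef proteins, whereas a separate branch, often driven by Wnt5a or Wnt11 and by Ror receptors, controls cell movement and the alignment of cells in a plane. Sfrp proteins and Wif1 bind Wnts outside the cell, and several Dkk proteins block Lrp5 and Lrp6. In the airway, Wnt signals pattern the developing trachea, and the planar branch, with Fzd3 and Fzd6, helps to align the cilia of multiciliated cells.

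The data are 20 polyA RNA-seq libraries from primary mouse tracheal epithelial cells grown on porous membranes and differentiated at an air-liquid interface, in which the apical medium is removed so that multiciliated and secretory cells form. The wild-type groups and the groups from mice labelled as global p73 knock-out (p73 is a transcription factor of the p53 family, encoded by Trp73) were sampled at day 0, 4, 7 and 14 after exposure to air, with 3 wild-type and 2 labelled-knockout libraries at each day. The strain, the age of the mice, the cells pooled per culture and the part of Trp73 removed are not given in the labels, and no Cre or transgene is named. The study's design text speaks of 3 independent biological replicates from both genotypes, and 2 labelled-knockout libraries a day were analysed here. The titles of wild-type replicate 1 and labelled-knockout replicate 1 at day 4 name day 3.

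Recovered reads ranged from 3266912 (wild type day 4, replicate 3) to 31529799 a library, and levels are given as CPM, read counts scaled to a common library size. Trp73 itself stood at 1.07 to 2.7 CPM in wild type and at 48.7 and 49.2 CPM in the labelled knockout at day 0, and the groups overlapped at days 7 and 14. Gene-level counts also take reads from exons outside a deletion, so this does not check the labels, and the group is called the labelled knockout throughout. The epithelial markers Epcam, Cdh1, Krt8 and Krt18 summed to at least 1730 CPM in every library. Summed levels of 11 fibroblast markers were higher in the labelled knockout at day 0 (154 and 280 CPM against 71.0 to 130 in wild type), led by replicate 1, and those of 10 squamous markers were 4880 and 8320 CPM against 607 to 1270 at the same day. Of the 9 leukocyte markers, 7, with Ptprc among them, stayed at or below 0.466 CPM in every library, while Itgam reached 47.4 CPM and Lyz2 7210 CPM.

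Of the 45 genes, 31 reached 0.5 CPM in at least 2 libraries and were tested. The other 14 were Dkk1, Dkk4, Fzd9, Lef1, Ror2, Sfrp2, Sfrp5, Wnt1, Wnt2, Wnt3, Wnt6, Wnt8a, Wnt8b and Wnt9b. Wnt9b had no read in any library, and the highest level among the 14 was 1.32 CPM, for the receptor kinase Ror2 in labelled-knockout day 0 replicate 1. Lef1, a nuclear partner of beta-catenin, did not exceed 4 reads in a library, whereas its relative Tcf7 was tested.

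The regions just before the transcription start are shown for 4 of the members described below: Wnt11, which separated the genotypes, Wnt5b, which rose with time, and Wnt7a and Fzd1, which fell. Each is 250 bases long, from RefSeq on GRCm38.p6, read 5′ to 3′ towards the gene: chr7:98834862-98835111 on the plus strand for Wnt11, and chr6:119449387-119449636, chr6:91411354-91411603 and chr5:4758217-4758466 on the minus strand for Wnt5b, Wnt7a and Fzd1. Capitals mark a match to the Tcf/Lef motif ATCAAAG on either strand or, in Wnt11 alone, the earlier run of capitals, a match to the p53-family half-site.
Wnt11: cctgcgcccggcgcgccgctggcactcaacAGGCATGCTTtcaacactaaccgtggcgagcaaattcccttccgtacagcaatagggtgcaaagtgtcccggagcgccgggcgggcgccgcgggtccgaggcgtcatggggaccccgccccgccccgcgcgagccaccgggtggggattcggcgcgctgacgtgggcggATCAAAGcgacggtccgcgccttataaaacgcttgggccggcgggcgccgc
Wnt5b: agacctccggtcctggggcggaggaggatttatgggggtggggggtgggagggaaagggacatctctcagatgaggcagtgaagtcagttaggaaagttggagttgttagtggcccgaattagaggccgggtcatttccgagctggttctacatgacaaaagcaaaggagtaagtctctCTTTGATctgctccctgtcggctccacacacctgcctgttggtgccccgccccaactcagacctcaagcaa
Wnt7a: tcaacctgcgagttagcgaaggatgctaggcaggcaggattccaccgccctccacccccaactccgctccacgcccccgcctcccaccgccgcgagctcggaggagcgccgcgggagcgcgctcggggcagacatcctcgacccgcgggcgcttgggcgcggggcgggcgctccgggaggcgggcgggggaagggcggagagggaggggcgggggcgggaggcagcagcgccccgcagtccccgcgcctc
Fzd1: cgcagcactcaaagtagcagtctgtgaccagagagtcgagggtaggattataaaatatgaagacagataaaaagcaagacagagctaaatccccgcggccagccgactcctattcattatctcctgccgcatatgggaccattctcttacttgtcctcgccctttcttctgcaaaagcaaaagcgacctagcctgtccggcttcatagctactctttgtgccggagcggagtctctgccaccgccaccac
In Wnt11 the Tcf/Lef match began 51 bases and the half-site match 220 bases before the start. In Wnt5b the Tcf/Lef match, on the other strand, began 71 bases before the start. Wnt11 and Wnt5b have several starts, and for them the window with the most Tcf/Lef matches is shown. The choice thus favoured a match, and their other windows held no Tcf/Lef match. The windows of Wnt7a and Fzd1 held neither motif. Of the 45 genes, 31 had such windows (38 in all, since some genes have several starts). The Tcf/Lef motif was in 2 of these 38 and in 3.21% of all 32851 promoter windows, the half-site in 1 and in 7.13%, and the AP-1 motif TGANTCA in 2 (1 of Ror2 and another start of Wnt5b) and in 6.75%. These are matches of letters and do not show binding.

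Wnt11 was the member that separated the genotypes. Wnt11 (ENSMUSG00000015957, chr7:98835112-98855195, plus strand, GRCm38) encodes a ligand of the planar, beta-catenin-independent branch. At day 0 it stood at 8.82, 9.14 and 13.6 CPM in wild type and at 13.2 and 12.6 CPM in the labelled knockout. At day 4 the wild-type libraries held 3.41, 6.17 and 5.98 CPM against 1.05 and 0.895 CPM. The groups thus overlapped at day 0 and were apart at day 4, with both labelled-knockout libraries below every wild-type one. By day 7 the values were 7.91, 7.18 and 9.82 CPM against 1.79 and 2.62 CPM, and day 14 gave 11.6, 18.5 and 17.9 CPM in wild type beside 1.2 and 2.87 CPM. Wild type thus dipped at day 4 and stood highest at day 14, while the labelled knockout stayed below 3 CPM from day 4 on.

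On the log2(CPM + 0.5) scale, on which a fold change of a low gene is understated, the difference between labelled knockout and wild type in Wnt11 was 0.31 ± 0.32 (SE) at day 0 (adjusted p = 0.83), -1.91 ± 0.32 at day 4 (adjusted p = 0.00486), -1.71 ± 0.32 at day 7 (adjusted p = 0.0104) and -2.75 ± 0.32 at day 14 (adjusted p = 0.000149, 6.75-fold lower). These are limma tests over all 15738 tested genes with Benjamini-Hochberg adjustment, and calls are those with an adjusted p under 0.05. From day 0 to day 14 Wnt11 fell by 2.48 in the labelled knockout (adjusted p = 5.1e-05) and differed by 0.58 ± 0.29 in wild type (adjusted p = 0.121). The difference between these changes was -3.06 ± 0.46 (adjusted p = 0.00409), and the day 14 call and this one passed under every alternative and every left-out library (highest adjusted p 0.00726 and 0.0342). The day 4 call did not pass without labelled-knockout day 4 replicate 2 (adjusted p = 0.116) or in a fit of the day 4 libraries alone (adjusted p = 0.116). The day 7 call did not pass without wild-type replicate 3 (adjusted p = 0.0708), without labelled-knockout replicate 1 (adjusted p = 0.149) or without replicate 2 (adjusted p = 0.0666).

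In these bulk samples, fewer cells of a type and less RNA per cell cannot be told apart. The 5 multiciliated markers (Foxj1, Tubb4b, Dnahc5, Ccdc39 and Sntn) summed to 1490 to 2200 CPM in wild type and 790 and 829 CPM in the labelled knockout at day 14, and to 1310 to 1740 against 764 and 926 CPM at day 7, the order that Wnt11 showed. At day 4, where Wnt11 was already apart, the sums overlapped (488, 1090 and 1050 against 682 and 757 CPM). The wild-type library at 488 CPM was replicate 1, titled day 3, as was the labelled-knockout library at 682 CPM. Sntn alone was apart at day 4, at 2.0, 25.6 and 21.8 against 0.271 and 0.389 CPM. Limma called 1 of the 5 markers lower there. At day 0 the marker sums were 129 to 207 CPM in wild type and 202 and 245 CPM in the labelled knockout, when Wnt11 stood at 10.5 ± 2.65 CPM (SD, n = 3). The 10 squamous markers also stood apart at day 4 (5260 and 7000 CPM in the labelled knockout, 434 to 714 CPM in wild type) and at day 14 (1560 and 1600 against 341 to 470 CPM). The 5 basal markers summed to 1010 and 1130 CPM against 658 to 731 CPM at day 14. The 7 smooth muscle and cartilage markers summed to 56.8 to 81.7 CPM in wild type and 17.6 and 35.7 CPM in the labelled knockout at day 4, had the opposite order at day 7 (6.71 to 17.6 against 23.5 and 35.8 CPM) and overlapped at day 14. The 5 secretory markers summed to 23600 to 31500 against 21100 and 22700 CPM at day 4. At day 7 the sums were 22200 to 26000 against 20900 and 21100 CPM. The sums were also apart at day 0, where Wnt11 overlapped (3720 to 6060 against 1810 and 2390 CPM, 4 of 5 called lower by limma). At day 14, where Wnt11 differed most, the sums overlapped (20900 to 29400 against 17300 and 22400 CPM). Cyp2f2 alone held 15800 CPM or more in every library from day 4 on. The part of any of these cells in the Wnt11 difference was not tested. A pseudogene, Gm8398, overlaps Wnt11 on the opposite strand.

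**Figure D1:**
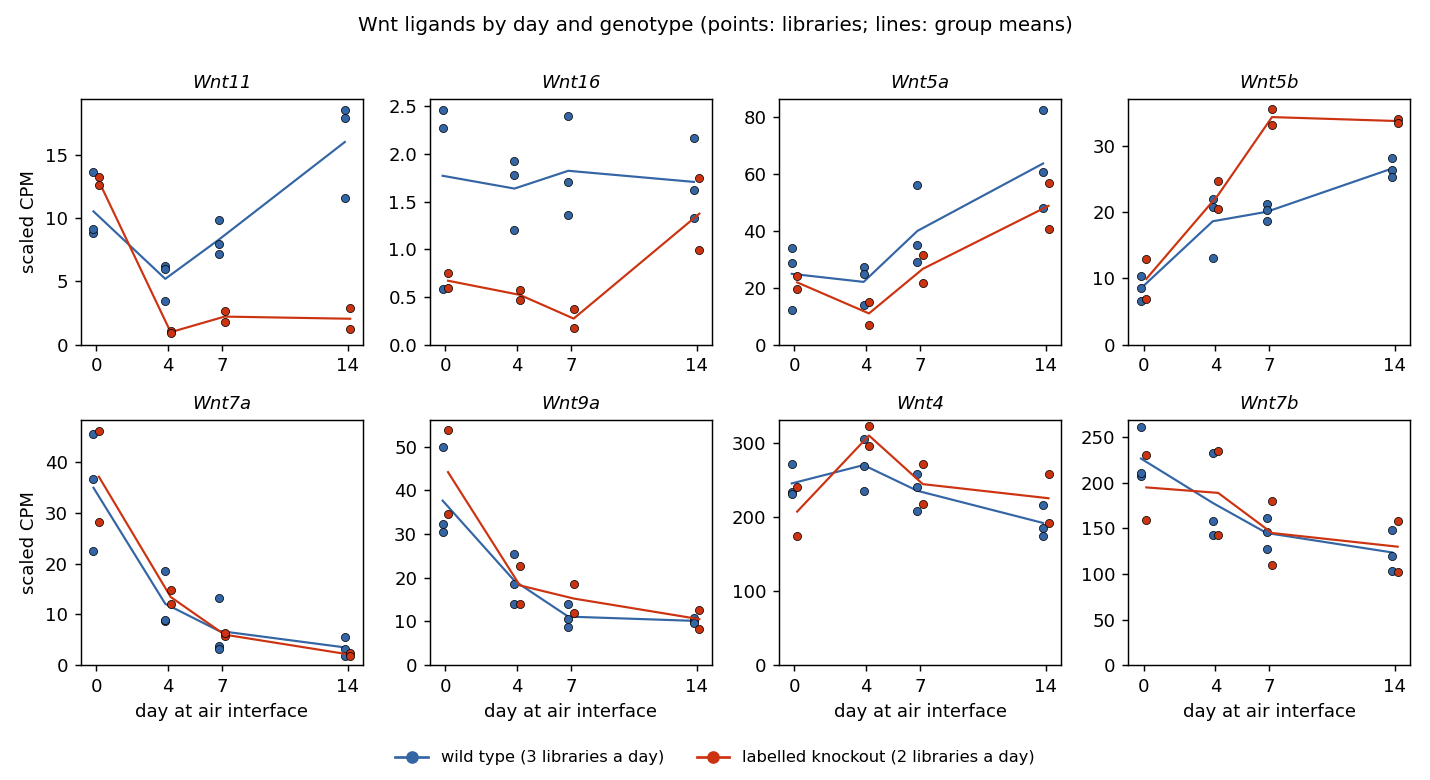
Scaled CPM (y axis) of 8 Wnt ligands against day at the air interface (x axis), with 1 point per library and lines through the group means, wild type in blue (3 libraries a day) and labelled knockout in red (2 a day). Wnt11 lies between 0.895 and 2.87 CPM in the labelled knockout from day 4 on and at 3.41 CPM or more in wild type, whereas Wnt7a and Wnt9a fall in both genotypes and Wnt5b rises in both.

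Few other members differed between the genotypes at a given day. At day 0 none of the 31 tested members was called by limma (3 had an unadjusted p under 0.05, and DESeq2 and the edgeR quasi-likelihood test also called 0), where 2.20% of all tested genes were. At day 4 Wnt11 alone was called, against 1.15% of all tested genes, and at day 14 Wnt11 alone against 4.21% (3.80% lower). At day 7, where 1.64% of all tested genes were called (0.820% higher and 0.820% lower), Wnt16 joined it. The median log2 difference over the tested members was 0.099, 0.064, 0.051 and 0.022 at days 0, 4, 7 and 14, beside 0.027, 0.018, -0.022 and -0.011 over all tested genes. A count of 1 or 2 members is too small to be read against these shares, which themselves moved with single libraries. Over all genes the day 4 count fell from 181 to 44 without labelled-knockout replicate 2, the day 7 count from 258 to 36 without labelled-knockout replicate 2 and the day 14 count from 663 to 253 without labelled-knockout replicate 1.

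Wnt16 (chr6:22288227-22298522, plus strand), a ligand known from bone and skin keratinocytes, was low throughout. At day 7 it stood at 2.4, 1.71 and 1.36 CPM in wild type and at 0.17 and 0.374 CPM in the labelled knockout, so the groups were apart. At day 4 the values were 1.93, 1.78 and 1.2 against 0.575 and 0.467 CPM, and at day 0 they were 0.583, 2.27 and 2.46 against 0.746 and 0.593 CPM. At day 14, with 1.62, 2.17 and 1.33 against 0.996 and 1.75 CPM, the groups overlapped. The log2 difference was -1.58 ± 0.37 at day 7 (limma, adjusted p = 0.0419) and -1.05 ± 0.37 at day 4 (adjusted p = 0.309). The day 7 call rested on few reads: it did not pass without any 1 of wild-type replicate 1, 2 or 3 (adjusted p = 0.156, 0.0859 and 0.0915) or labelled-knockout replicate 1 or 2 (0.308 and 0.168), nor with a pseudocount of 2 CPM (0.0781) or with all genes kept (0.065). At day 0 it was called only without wild-type replicate 1, the library at 0.583 CPM (-1.3, adjusted p = 0.0265).

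Wnt5b (chr6:119432531-119544347, minus strand) and the antagonist-family member Dkk3 stood higher in the labelled knockout at day 7 but did not pass in the fit over all libraries. Wnt5b was at 18.7, 21.3 and 20.3 CPM in wild type and 33.2 and 35.7 CPM in the labelled knockout, a log2 difference of 0.76 ± 0.25 (limma, adjusted p = 0.188), and it was called in a fit of the day 7 libraries alone (0.78, adjusted p = 0.0488). Dkk3 was at 5.7, 14.4 and 13.2 CPM against 28.7 and 25.7 CPM, a difference of 1.35 ± 0.44 (adjusted p = 0.183). Neither pair of groups overlapped. The authors' deposited table gives an adjusted p of 0.000903 for Wnt5b and of 0.0102 for Dkk3 at day 7, and of 0.000757 for Wnt16 and 5.87e-07 for Wnt11. In the authors' deposited table the members under 0.05 were none at day 0, Wnt11 at days 4 and 14, and these 4 at day 7.

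Fzd4, a receptor best known from retinal vessels, had both labelled-knockout libraries below every wild-type one at the 3 later days without passing the test. The values were 12.5, 20.2 and 18.8 against 10.4 and 12.2 CPM at day 4, and 16.9, 18.2 and 20.5 against 12.4 and 12.2 CPM at day 7. At day 14 they were 14.4, 19.3 and 21 against 11.5 and 11.4 CPM. The log2 differences were -0.55, -0.57 and -0.64, each ± 0.25 (limma, adjusted p = 0.569, 0.456 and 0.247). The antagonist Wif1 stood at 0.869, 0.472 and 0.599 CPM in wild type and 0.0415 and 0.103 CPM in the labelled knockout at day 14 (-0.99 ± 0.31, adjusted p = 0.0962), on at most 23 reads a library.

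The larger changes of these genes were with time at the air interface. In wild type, 18 of the 31 tested members were called between day 0 and day 14, 5 higher and 13 lower, where 40.3% of all tested genes were called, 21.8% higher and 18.5% lower. The median log2 change was -0.588 over the tested members and 0.001 over all tested genes. At day 4, 14 members were called, 2 higher and 12 lower (13.7% and 13.3% of all tested genes, 27.0% in all), and at day 7, 13 were, 2 higher and 11 lower (19% and 16.4%, 35.5% in all). The day 4 count was 8 without wild-type day 4 replicate 3, the shallowest library, and 9 without wild-type day 0 replicate 3. These 3 comparisons share the day 0 libraries. Over the same time the summed basal markers went from 1250 to 3220 CPM to 658 to 731 CPM in wild type, the fibroblast markers from 71.0 to 130 CPM to 18.5 to 35.8 CPM, and the multiciliated markers from 129 to 207 CPM to 1490 to 2200 CPM. The 4 epithelial markers were all called lower at day 4, 7 and 14, with sums of 4550 to 5710 CPM at day 0 and 1900 to 2140 CPM at day 14. Of the 9 tested squamous markers 8 were called lower at day 14, and the secretory markers (Scgb1a1 and 4 others) summed to 3720 to 6060 CPM at day 0 and 20900 to 29400 CPM at day 14. The part of these cells in the changes with time was not tested.

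Among the ligands, Wnt4 and Wnt7b led at every stage. Per kb of exons, Wnt4 (a ligand of kidney and gonad development) made up 41.7% ± 2.33 (SD, n = 3) of the summed ligand level in wild type at day 0 and 45.2% ± 2.91 at day 14. Wnt7b, a ligand of lung branching and growth, made up 32.9% ± 0.63 and 25.0% ± 4.71. The summed level per kb was 141 ± 20.1 CPM at day 0 and 101 ± 7.82 CPM at day 14. Wnt4 kept 231 to 271 CPM per gene at day 0 and 174 to 216 CPM at day 14 in wild type, and its change did not pass (-0.36 ± 0.16, limma, adjusted p = 0.086). Wnt7b held 208, 211 and 261 CPM at day 0 and 148, 120 and 103 CPM at day 14, and fell by 0.89 (adjusted p = 0.00929). At day 7 the fall of Wnt7b was called under alternatives only. These included limma with DESeq2 scaling (adjusted p = 0.0374) and in a fit of the 2 groups alone (0.00947), edgeR (0.0472) and DESeq2 (0.0234). An antisense gene, AU022754, overlaps Wnt7b.

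On the log2(CPM + 0.5) scale, Wnt7a and Wnt9a fell furthest to day 14 among the tested ligands in wild type. Wnt7a (chr6:91363981-91411363, minus strand), a ligand of limb and skin patterning, stood in wild type at 22.6, 36.7 and 45.6 CPM at day 0 and at 18.6, 8.73 and 8.96 CPM at day 4. It was at 13.2, 3.87 and 3.21 CPM at day 7 and at 5.55, 3.19 and 1.8 CPM at day 14. Replicate 1 was the lowest of the 3 libraries at day 0 and the highest at each later day. The labelled knockout went from 28.2 and 46.1 CPM at day 0 to 2.37 and 1.8 CPM at day 14, below every day 0 library. The log2 change to day 14 was -3.2 ± 0.45 in wild type (limma, adjusted p = 2.47e-05) and -3.83 ± 0.55 in the labelled knockout (adjusted p = 5.85e-05).

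Wnt9a (chr11:59306928-59333552, plus strand), a ligand with roles in joint formation, is the member named as the marker of the set. Its wild-type levels were 30.5, 32.4 and 50 CPM at day 0, 25.4, 18.5 and 14.0 CPM at day 4, and 14.1, 10.5 and 8.75 CPM at day 7. At day 14 they lay close together at 10.8, 10 and 9.65 CPM. The labelled-knockout libraries held 34.5 and 53.8 CPM at day 0 and 22.6 and 13.9 CPM at day 4. They held 18.5 and 12 CPM at day 7 and 12.7 and 8.37 CPM at day 14. The groups overlapped at each day. At days 0 and 7, 1 labelled-knockout library lay above wild type and the other within it. Wnt9a fell to day 14 by 1.81 (SE 0.28, limma, adjusted p = 6.51e-05) in wild type and by 2.01 (SE 0.34, adjusted p = 0.000272) in the labelled knockout, and no comparison of genotypes called it (lowest adjusted p 0.889 at day 0, 0.992 at day 4, 0.918 at day 7 and 0.996 at day 14). Its neighbour Wnt3a, 16.2 kb away on the opposite strand, stayed at or below 1.4 CPM.

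Wnt5a, Wnt5b and Wnt3a rose in wild type. Wnt5a (chr14:28504750-28527448, plus strand), the main ligand of the planar branch in development, was at 12, 28.6 and 33.8 CPM at day 0, 14.0, 27.1 and 24.8 at day 4, 34.8, 29.0 and 55.8 at day 7, and 47.9, 82.3 and 60.4 at day 14. Every day 14 library lay above every day 0 one, and the log2 change was 1.43 ± 0.38 (limma, adjusted p = 0.00643). In the labelled knockout it went from 24.0 and 19.6 CPM to 40.7 and 56.6 CPM (1.12 ± 0.47, adjusted p = 0.0775), and was called there with scaling by library size alone (adjusted p = 0.0452), by DESeq2 (0.0344) and in a fit of the 2 groups alone (0.0245). The difference between the genotypes' changes was -0.31 ± 0.6 (adjusted p = 0.983). A gene antisense to Wnt5a, Gm2670, overlaps it, and the strand setting of the counting is not given.

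For Wnt5b, a close relative of Wnt5a, the wild-type values were 8.53, 6.6 and 10.4 CPM at day 0 and 26.4, 28.2 and 25.4 CPM at day 14, with 13.1, 20.8 and 22.1 CPM at day 4 between them. The labelled knockout held 13 and 6.88 CPM at day 0, 20.5 and 24.8 at day 4, and 34.2 and 33.5 CPM at day 14. Wnt5b rose by 1.61 ± 0.22 in wild type and by 1.78 ± 0.28 in the labelled knockout (limma, adjusted p = 2.08e-05 and 0.000107). The coding gene Fbxl14 overlaps it on the opposite strand. Wnt3a, a strong activator of beta-catenin signalling, was at 0.219, 0.206 and 0 CPM at day 0 and 0.34, 0.905 and 1.4 CPM at day 14. Its call at day 14 (1.05 ± 0.39, adjusted p = 0.0433) did not pass without wild-type day 0 replicate 1, 2 or 3 (adjusted p = 0.0536, 0.0675 and 0.142) or day 14 replicate 2 or 3 (0.107 and 0.182), nor by edgeR (0.0537) or with all genes kept (0.0654).

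The other tested ligands, Wnt2b, Wnt4, Wnt10a, Wnt10b and Wnt16, were not called with time in either genotype in the limma fit over all libraries without a replicate block. Wnt10a, a ligand of hair, tooth and skin appendages, held 4.96 to 17.6 CPM over all libraries, and Wnt2b and Wnt10b stayed at or below 1.79 and 0.711 CPM. Wnt10b was called in wild type at day 14 by edgeR (-2.34, adjusted p = 0.0331) and DESeq2 (-2.43, adjusted p = 0.0463). Limma called it in wild type without day 0 replicate 2, the library at 0.0687 CPM. This held at day 7 (-0.82, adjusted p = 0.0164) and day 14 (-0.89, adjusted p = 0.00817).

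**Figure D2:**
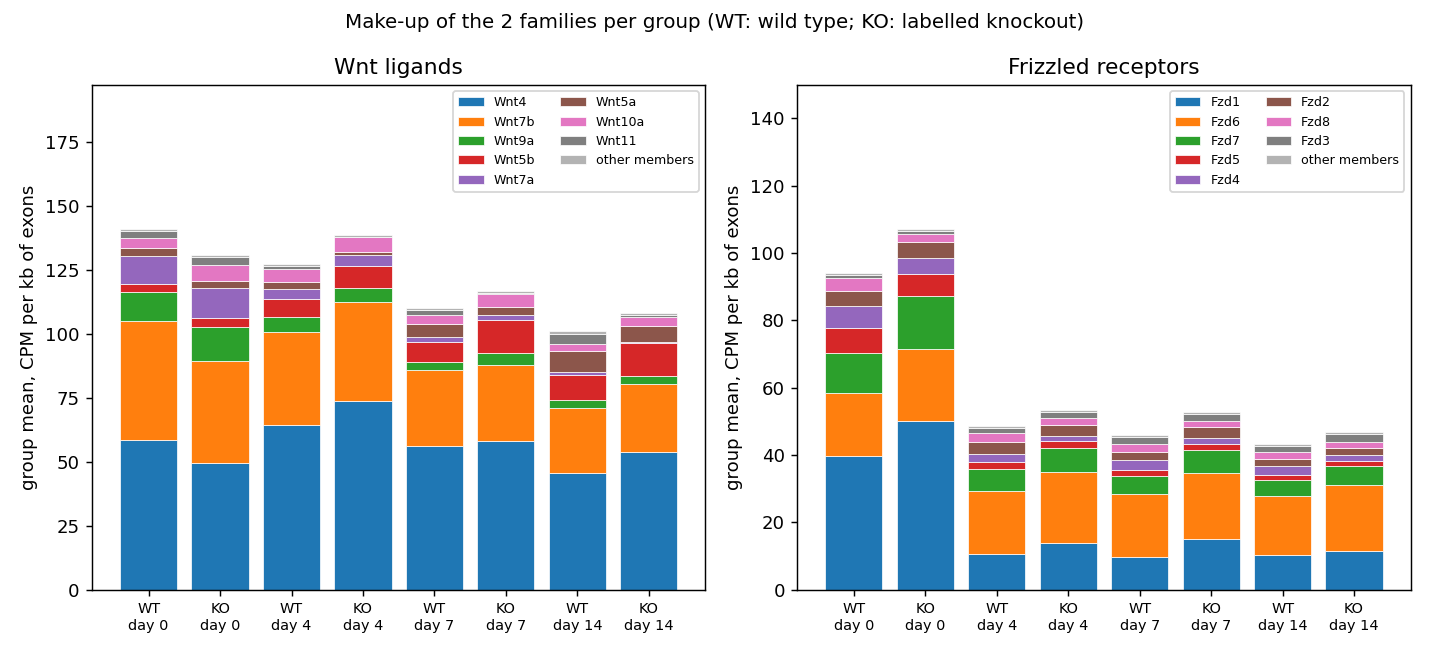
Group means of CPM per kb of exons (y axis) stacked by gene for the Wnt ligands (left) and the Frizzled receptors (right) in each group of genotype and day (x axis; WT, wild type; KO, labelled knockout). Wnt4 and Wnt7b make up most of each ligand bar, and the Frizzled bar in wild type drops from 94.1 to 48.6 CPM per kb between day 0 and day 4, with Fzd1 losing the most.

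The summed level of the Frizzled receptors was lower after day 0. This summed level per kb of exons was 94.1 ± 11.8 CPM (SD, n = 3) in wild type at day 0, 48.6 ± 2.26 at day 4 and 43.3 ± 2.84 at day 14, and 107 ± 20.7 and 46.9 ± 7.23 CPM (n = 2) in the labelled knockout at days 0 and 14. Of the 9 tested members, 5 fell and 1 rose by day 14 in wild type, where 18.5% of all tested genes fell and 21.8% rose, and Fzd6, Fzd8 and Fzd10 were not called. The share of Fzd1 in the sum went from 42.2% ± 3.4 at day 0 to 23.7% ± 2.59 at day 14, and that of Fzd6 from 20.2% ± 3.07 to 40.7% ± 0.375, so the leading receptor changed from Fzd1 to Fzd6.

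Fzd1 (chr5:4753839-4758035, minus strand), a receptor that can signal through beta-catenin, was at 168, 145 and 186 CPM in wild type at day 0. It was at 45.6, 52.5 and 35.9 CPM at day 4, 46.5, 36.4 and 41.4 at day 7, and 51.9, 39.8 and 37.7 at day 14. Almost all of the drop lay between day 0 and day 4, with no overlap. The labelled knockout went from 261 and 158 CPM at day 0 through 60.8 and 55.9 CPM at day 4 to 55.4 and 42.0 CPM at day 14. The log2 change to day 14 was -1.94 ± 0.21 and -2.06 ± 0.25 in the genotypes (limma, adjusted p = 1e-06 and 1.14e-05).

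Fzd5 (chr1:64730558-64737751, minus strand), a receptor of eye and gut epithelium, held 27.8, 50.3 and 79.2 CPM in wild type at day 0, 12.9, 12 and 15.2 at day 4, and 9.18, 10.8 and 9.38 at day 14. The wide spread at day 0 was gone at the later days. In the labelled knockout it went from 39.7 and 48.5 to 10.9 and 13 CPM. Fzd5 fell by 2.24 and 1.84 (limma, adjusted p = 2.48e-06 and 0.000285).

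Fzd7 (chr1:59482424-59486955, plus strand), a receptor known from epithelial stem cells, went from 44.5, 59.1 and 56.6 CPM at day 0 to 21.9, 20 and 21.1 CPM at day 14 in wild type and from 66.7 and 77.4 to 31.0 and 19.3 CPM in the labelled knockout. It fell by 1.31 and 1.54 (limma, adjusted p = 2.38e-05 and 7.25e-05). Fzd4 held 30.6, 45.0 and 57.2 CPM in wild type and 37.4 and 28.0 CPM in the labelled knockout at day 0, and with the day 14 values above it fell by 1.23 and 1.46 (adjusted p = 0.000325 and 0.000636). Both genes were lower in every day 14 library than in any day 0 library of the same genotype.

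Fzd2 and Fzd3 went opposite ways. Fzd2, a receptor with roles in palate and limb development, was at 16.2, 12 and 18.7 CPM at day 0 and 10.4, 6.02 and 5.72 CPM at day 14 in wild type. It fell by 1.06 (limma, adjusted p = 0.0223), but not without wild-type day 0 replicate 1 or 3 (adjusted p = 0.0502 and 0.0885) or day 14 replicate 2 or 3 (0.0802 and 0.0874). In the labelled knockout it went from 20.1 and 13.6 to 10 and 5.39 CPM (-1.11 ± 0.43, adjusted p = 0.0556), and was called there by DESeq2 (-1.09, adjusted p = 0.0418). Fzd3 (chr14:65192449-65262463, minus strand), a receptor of axon guidance and planar polarity, was the receptor that rose. It stood at 9.91, 13.3 and 13.1 CPM at day 0, 14.2, 20.5 and 23.3 at day 4, 20, 25.2 and 26.0 at day 7, and 19.9, 27.8 and 26.4 at day 14 in wild type, with no overlap between day 0 and the later days. From 10.4 and 10.9 CPM it reached 25.2 and 37.0 CPM in the labelled knockout. The log2 changes were 1.0 ± 0.22 and 1.48 ± 0.27 (adjusted p = 0.00169 and 0.000518), and their difference was 0.48 ± 0.35 (adjusted p = 0.815).

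Fzd6, which acts with Fzd3 in planar polarity, kept between 80.8 and 119 CPM in all 20 libraries, and its change to day 14 was -0.09 ± 0.14 in wild type (limma, adjusted p = 0.619) and -0.13 ± 0.17 in the labelled knockout (adjusted p = 0.611). Fzd8 ranged from 9.05 to 34.5 CPM and Fzd10 from 0.95 to 2.77 CPM. Fzd8 did not pass at day 14 in wild type (-0.71 ± 0.28, adjusted p = 0.0519) and was called there by edgeR (-0.83, 0.0267) and DESeq2 (-0.84, 0.012). Limma called it there with DESeq2 scaling (-0.72, 0.0459) and without wild-type day 0 replicate 1 (-1.03, 0.00424). Without that library limma also called Fzd8 at day 4 (-0.79, 0.0294) and day 7 (-0.83, 0.0179).

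**Figure D3:**
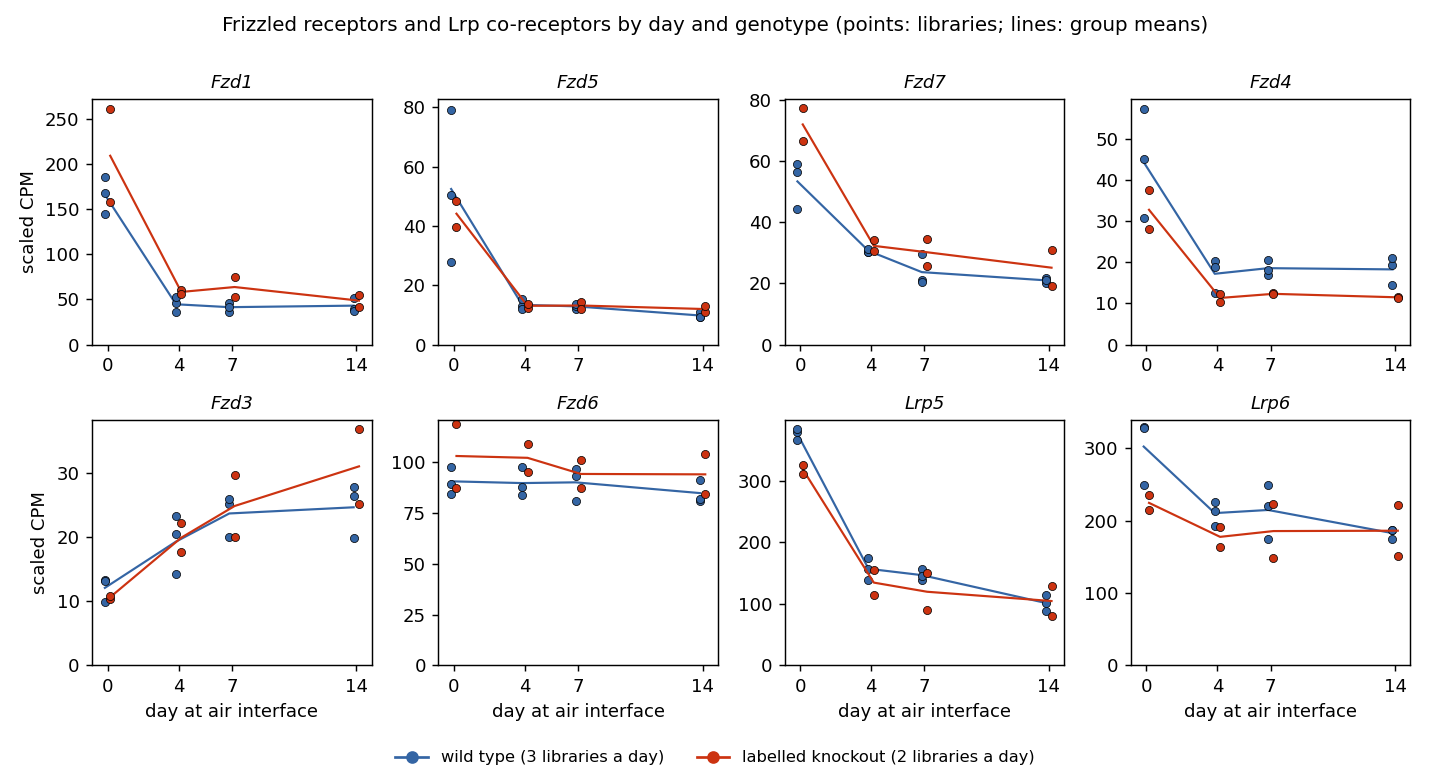
Scaled CPM (y axis) of 6 Frizzled receptors and the co-receptors Lrp5 and Lrp6 against day at the air interface (x axis), with 1 point per library and lines through the group means, wild type in blue and labelled knockout in red. Fzd1, Fzd5 and Lrp5 drop between day 0 and day 4 in both genotypes, Fzd3 climbs, and Fzd6 stays between 80.8 and 119 CPM.

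All 3 tested co-receptors or alternative receptors fell in wild type. Lrp5 (chr19:3584828-3686564, minus strand), a co-receptor also known for its part in bone mass, was tight at day 0 (379, 367 and 384 CPM in wild type, 326 and 312 CPM in the labelled knockout). It stood at 175, 139 and 157 CPM at day 4, 156, 139 and 145 at day 7, and 114, 102 and 87.6 at day 14 in wild type. The labelled knockout held 129 and 80.0 CPM at day 14. Every later library lay far below every day 0 library, and Lrp5 fell by 1.9 in wild type and 1.64 in the labelled knockout (limma, adjusted p = 6.4e-07 and 5.79e-05).

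Lrp6, the co-receptor most widely required in development, went from 249, 330 and 328 CPM to 187, 174 and 187 CPM in wild type and from 235 and 214 to 221 and 151 CPM in the labelled knockout. It fell by 0.72 in wild type (limma, adjusted p = 0.00423) and differed by -0.3 ± 0.22 in the labelled knockout (adjusted p = 0.328), where the days overlapped. The difference between these changes was 0.42 ± 0.28 (adjusted p = 0.777). The receptor kinase Ror1 was at 1.02, 1.72 and 1.4 CPM in wild type and 3.93 and 1.86 CPM in the labelled knockout at day 0. At day 14 it was at 0.453, 0.394 and 0.599 against 0.456 and 0.513 CPM, and it fell by 0.92 and 1.72 (adjusted p = 0.00836 and 0.000502). Ror1 was called between the genotypes at day 0 only without labelled-knockout replicate 2 (1.26, adjusted p = 0.046).

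Among the 5 tested antagonists, Dkk3 fell in both genotypes. Dkk3 (chr7:112116017-112159057, minus strand), a divergent Dkk-family member whose effect on Wnt signals varies by cell, stood in wild type at 69.3, 82.4 and 76.1 CPM at day 0 and 11.7, 19.6 and 19.4 CPM at day 4. At day 14 it was at 7.25, 20.5 and 27.9 CPM, where replicate 1 was lowest, as at days 4 and 7. The labelled knockout went from 128 and 76.0 CPM to 23.7 and 27.3 CPM. The log2 change to day 14 was -2.19 ± 0.4 in wild type (limma, adjusted p = 0.000275) and -1.94 ± 0.48 in the labelled knockout (adjusted p = 0.00549), the last not passing without labelled-knockout day 0 replicate 1 (adjusted p = 0.0615).

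Wif1, which binds Wnts directly, was at 0, 0.55 and 0 CPM in wild type at day 0 and at the day 14 values above. It rose by 0.83 ± 0.28 (limma, adjusted p = 0.025), a call that did not pass without wild-type day 0 replicate 1 or 3 (adjusted p = 0.0954 and 0.109) or day 14 replicate 1 or 3 (0.0978 and 0.0524), by edgeR (0.191), by DESeq2 (0.35) or in a fit of the 2 groups alone (0.0897). Sfrp1, a decoy that binds Wnts, was not called. In replicate 1 it was lowest at each later day in wild type, with 4.95 against 15.5 and 14.3 CPM at day 4, 9.06 against 27.0 and 17.6 at day 7, and 9.63 against 19.7 and 32.8 at day 14. Labelled-knockout replicate 1 was likewise the lower of the pair at these days (6.22 against 13.6, 11.4 against 24.6 and 12.2 against 14.9 CPM). Dkk2 and Sfrp4 stayed at or below 3.19 and 0.808 CPM.

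Of the genes at the end of the pathway, Tcf7 fell and Axin2 was not called. Tcf7, a nuclear partner of beta-catenin, was at 5.32, 4.47 and 3.49 CPM in wild type and 12.6 and 5.89 CPM in the labelled knockout at day 0. At day 14 it was at 1.81, 2.32 and 1.53 against 1.62 and 1.8 CPM. It fell by 1.04 in wild type (limma, adjusted p = 0.0203), and in the labelled knockout it fell by 2.05 (adjusted p = 0.00105). The wild-type call did not pass without day 0 replicate 1 or 2 (adjusted p = 0.0635 and 0.0501) or day 14 replicate 1 or 3 (0.0506 and 0.075). Axin2, which is induced by beta-catenin signalling and dampens it, ranged from 1.09 to 3.64 CPM over the 20 libraries, and its change to day 14 was -0.04 ± 0.29 in wild type (adjusted p = 0.932).

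Several calls of the earlier wild-type days lay near the threshold and did not pass with 1 library left out, while the direction stayed. Fzd3 at day 4 (0.64, limma, adjusted p = 0.0422) did not pass without day 0 replicate 1 or 2 (adjusted p = 0.125 and 0.0737) or day 4 replicate 2 or 3 (0.118 and 0.182), nor with all genes kept (0.068), DESeq2 scaling (0.0571) or the 2 groups alone (0.104). Its log2 change without these libraries was 0.49 to 0.70. Wnt7a at day 4 (-1.52, 0.0192) did not pass without day 0 replicate 2 or 3 (0.056 and 0.0866) or day 4 replicate 2 or 3 (0.0727 and 0.0807), at changes of -1.28 to -1.47, and Wnt9a (-0.95, 0.0186) without replicate 3 of day 0 (-0.70, 0.116) or day 4 (-0.75, 0.103). Wnt11 at day 4 (-0.97, 0.0194) did not pass without day 0 replicate 3 (-0.75, 0.102) or day 4 replicate 1 (-0.70, 0.101), in a fit of the 2 groups alone (0.057) or without the libraries titled day 3 (0.113). Tcf7 did not pass at day 4 without day 4 replicate 3 (0.0556) nor at day 7 without day 7 replicate 1 (0.0504).

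Lrp6 and Ror1 were likewise near the threshold at these days. Lrp6 (-0.52 at day 4 and -0.5 at day 7) did not pass at day 4 without day 0 replicate 2 or 3 (limma, adjusted p = 0.112 and 0.163) or day 4 replicate 1, 2 or 3 (0.0642, 0.131 and 0.0944), nor at day 7 without day 0 replicate 2 or 3 (0.0925 and 0.131) or day 7 replicate 2 or 3 (0.185 and 0.0752). Its changes without these libraries were -0.42 to -0.55 at day 4 and -0.36 to -0.52 at day 7. With scaling by library size alone it did not pass at either day (0.114 and 0.134). Ror1 (-0.86 and -0.74) did not pass at day 4 without day 0 replicate 2 or 3 (0.0829 and 0.057) or day 4 replicate 3 (0.1), nor at day 7 without day 0 replicate 2 or 3 (0.118 and 0.0796) or day 7 replicate 1, 2 or 3 (0.0636, 0.056 and 0.117). Its changes without these libraries were -0.68 to -0.82 at day 4 and -0.62 to -0.79 at day 7. In a fit of the 2 groups alone it did not pass at either day (0.119 and 0.0541). By contrast the day 4 falls of Dkk3, Fzd1, Fzd4, Fzd5, Fzd7 and Lrp5 and the rise of Wnt5b passed with each library left out and under each alternative.

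In the labelled knockout 13 of the 31 tested members were called between day 0 and day 14, 2 higher and 11 lower, where 32.0% of all tested genes were called, 14.3% higher and 17.7% lower. The median log2 change was -0.676 over the tested members and -0.017 over all tested genes. Each of the 13 apart from Wnt11 was also called in the same direction in wild type. The change differed between the genotypes for Wnt11 alone, where 1.00% of all tested genes were called (0.0191% higher), and among the other 30 the difference ranged up to 0.65, for Wnt2b (0.65 ± 0.51, limma, adjusted p = 0.843). Tcf7 (-1.01 ± 0.53, adjusted p = 0.589) and Ror1 (-0.79 ± 0.41, adjusted p = 0.574) had the next most negative values.

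**Figure D4:**
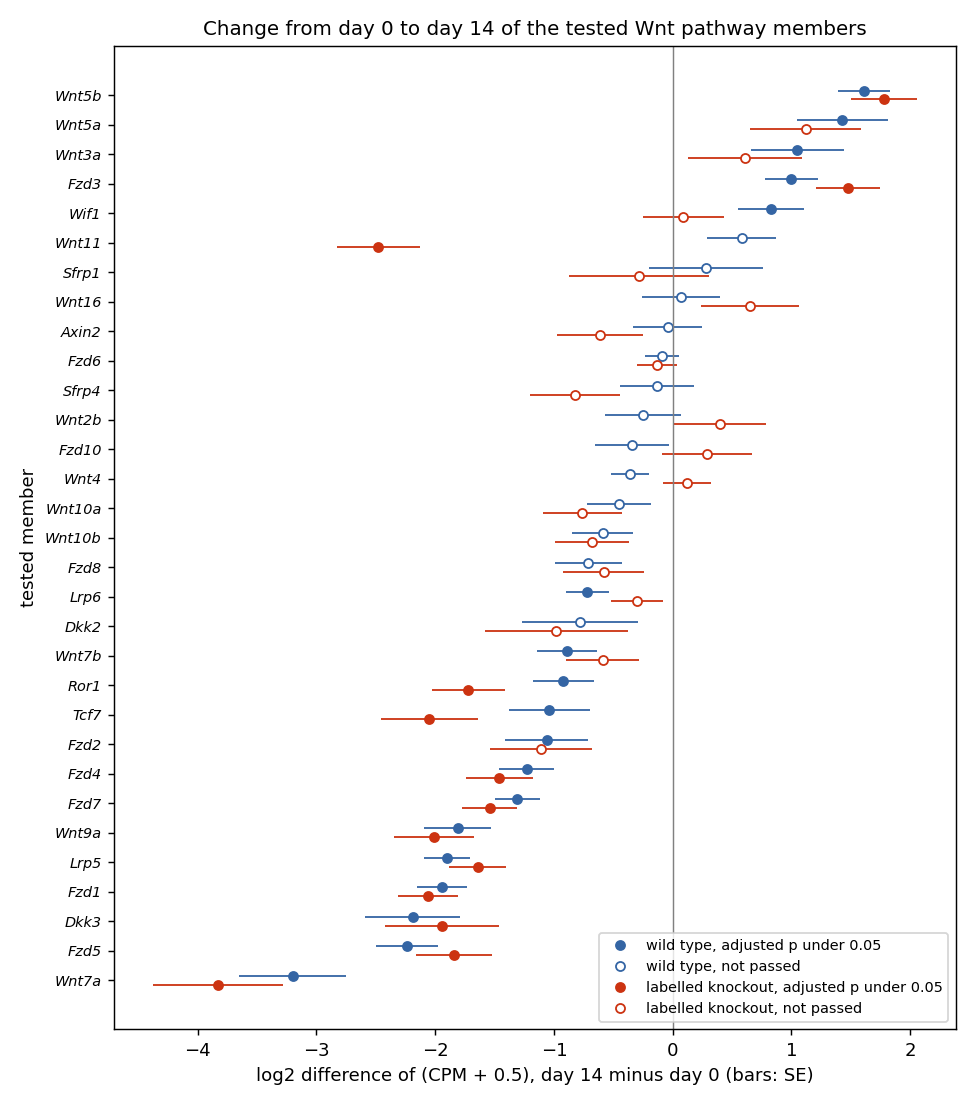
Log2 difference of CPM + 0.5 between day 14 and day 0 (x axis, bars are SE) for the 31 tested members (y axis), wild type in blue and labelled knockout in red, filled where the adjusted p was under 0.05. Most members lie left of 0 in both genotypes, Wnt5b and Fzd3 lie right of 0 in both, and Wnt11 lies at 0.58 in wild type and -2.48 in the labelled knockout.

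Labelled-knockout replicate 1 at day 0, the library with the most reads, held the highest level of all 20 libraries for some of the 45 genes, both low and abundant ones. How often this library was highest over all listed genes was not counted, so this is not shown to be a trait of the set. The genes were Dkk2 (3.19 CPM), Dkk3 (128 CPM), Fzd1 (261 CPM), Fzd2 (20.1 CPM), Fzd6 (119 CPM), Lef1 (0.136 CPM), Ror1 (3.93 CPM), Ror2 (1.32 CPM) and Tcf7 (12.6 CPM). Lef1 stood beside 0.135 CPM in labelled-knockout day 4 replicate 1. In the same library the fibroblast markers Col1a1, Col1a2 and Col3a1 stood at 46.2, 42.4 and 74.5 CPM. The other day 0 libraries held at most 12.6, 12.9 and 18.1 CPM. Pdgfrb stood at 7.6 CPM against at most 1.24 CPM, and Lum, Vim, Mfap5 and Twist2 were also highest there among the day 0 libraries. Dcn, Pdgfra and Fbln1 of the same list were not. Pdgfra was lowest there (6.48 CPM against 7.21 to 11.7), Dcn stood at 3.15 against up to 5.42 CPM, and Fbln1 at 46.0 against up to 96.6 CPM. Over the later days labelled-knockout day 7 replicate 1 had the next highest fibroblast sum (142 CPM) and the next highest Dkk2 (2.42 CPM). The part of fibroblasts in these values was not tested.

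Beyond the 45 genes, the wider pathway was read from lists of other Wnt genes. Limma called no gene between the genotypes at any day in the production and secretion (5 tested) and R-spondin and co-receptor turnover (10 tested) lists. The same held for the cytoplasmic and nuclear beta-catenin (24 tested) and target (13 tested) lists. Of all tested genes 1.15% to 4.21% were called a day, and these lists are too short for a count of 0 to be read against that. At an unadjusted limma p under 0.05 each list had 0 to 4 genes a day. The target list had 3 of 13 at day 7 and 4 at day 14, and the turnover list 3 of 10 at day 14. In the list of 5 other tested antagonists, Sostdc1, which binds Lrp co-receptors, was at 6.94 ± 2.99 CPM (SD, n = 2) in the labelled knockout and 0.521 ± 0.203 CPM (n = 3) in wild type at day 0. It was higher by 2.83 ± 0.36 on the log2 scale (adjusted p = 0.000302). Igfbp4, which binds insulin-like growth factors and also Wnt receptors, was higher by 1.53 ± 0.26 at day 0 (adjusted p = 0.00331) and by 1.25 ± 0.26 at day 7 (adjusted p = 0.0208).

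With time in wild type, 1 of the 5 tested genes of the production list rose and 1 fell by day 14, where 21.8% of all tested genes rose and 18.5% fell. Porcn, the enzyme that attaches the lipid to Wnts, went from 17.6 ± 2.74 to 86.7 ± 14.1 CPM (2.27 ± 0.31, limma, adjusted p = 1.64e-05), and the proteoglycan gene Gpc6 from 112 ± 57.1 to 1.95 ± 0.744 CPM (-5.41 ± 0.33, adjusted p = 2.14e-09). In the turnover list 1 of the 10 tested genes rose and 2 fell, among them Ptk7, a co-receptor of the planar branch (240 ± 59.4 to 108 ± 6.43 CPM, -1.12 ± 0.23, adjusted p = 0.000907). In the antagonist list 2 of 5 fell, including Igfbp4 (-3.19 ± 0.23, adjusted p = 1.27e-08). The median log2 change was -0.2, -0.16 and -0.44 over the tested genes of these 3 lists, beside 0.001 over all tested genes, and the lists are too short for their counts to be read against the shares.

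Of the 24 tested genes of the cytoplasmic and nuclear list 3 rose and 4 fell by day 14 in wild type, no larger a share than the 21.8% and 18.5% over all tested genes. They included Ctnnb1, which encodes beta-catenin (2420 ± 343 to 1720 ± 128 CPM, -0.48 ± 0.14, limma, adjusted p = 0.0119), and Btrc, which marks beta-catenin for destruction (0.78 ± 0.13, adjusted p = 0.000146). Of the 13 tested target and feedback genes none rose and 2 fell, where 18.5% of all tested genes fell. The 2 were Cd44, an adhesion receptor (397 ± 51.3 to 63.1 ± 5.48 CPM, -2.64 ± 0.22, adjusted p = 4.77e-08), and Apcdd1, a Wnt inhibitor that the antagonist list also holds (-0.88 ± 0.22, adjusted p = 0.00354).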

How the data were processed

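PolyA RNA of 20 libraries was measured. Per the file headers, the deposited values are normalized read counts (unit: signal) of 38355 genes, with the authors' log2 fold changes and p-values of genotype at each day. The submitters' processing notes name STAR 2.3.0e, DESeq2 1.4.5 and build mm10; for annotation and strand setting, not given in the sources used here. Within each library all deposited signal values were whole multiples of 1 step (within 0.1 reads), so whole reads were recovered by division; the totals are 3266912 to 31529799. The counts were scaled by TMM to CPM, the 15738 genes reaching 0.5 CPM in 2 or more libraries were kept, and log2(CPM + 0.5) was fitted in limma 3.58.1 (R 4.3.3; trend, robust) with 1 mean for each of 8 groups and 9 comparisons, tested on simulated data. P-values were adjusted over all tested genes. SE is limma's, SD is between libraries, and the precision of low genes is limited by their reads.

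Alternatives were a pseudocount of 2, no filter, library size or DESeq2 scaling, edgeR 4.0.16 and DESeq2 1.42.0 on the recovered reads, the compared groups alone, a replicate block, and each library left out. Deviations from the group means correlated at 0.337 to 0.675 between same-numbered libraries of both genotypes at a day. All were over 0.1, so the numbers were taken to pair the genotypes. The 2 labelled-knockout deviations of a day mirror each other, so the 2 correlations of a day are not independent. Between wild-type day 0 and each later day, not all correlations of same-numbered libraries were over 0.1 (-0.0472 to 0.229). The later days were not correlated with each other, nor were the days of the labelled knockout. Every gene of the symbol rule is accounted for, and each one called in any comparison is given with values. The members and lists were chosen with earlier results of these data known. Coordinates are from GENCODE vM21 on GRCm38. No deposited column of per-sample values was left out.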

Additional observations from a re-analysis of the deposited data

Results flagged for a closer look

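The change of Wnt11 from day 0 to day 14 differed between the genotypes in a direct test of that difference: -3.06 ± 0.46 on the log2(CPM + 0.5) scale (SE, limma, adjusted p = 0.00409), with both labelled-knockout day 14 libraries below both day 0 libraries and 2 of 3 wild-type day 14 libraries above all 3 at day 0. Multiciliated markers also stood lower in the labelled knockout at day 14, and their part in this difference was not tested.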

How the results depend on the processing

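No result reversed. The day 14 genotype count (1), the count for the difference in change (1), and the 14-day counts of wild type (17 to 19 by setting, 14 to 17 with 1 library left out) and of the labelled knockout (13 to 15 and 12 to 14) stayed within 1.5 times of the values reported. The day 4 genotype count went from 1 to 0 in a fit of the compared groups alone, where fewer libraries set the spread, and the day 7 count from 2 to 1 with a pseudocount of 2 CPM and to 1 with all genes kept, and it was 3 in a fit of the compared groups alone, with Wnt5b added. With 1 library left out the genotype counts ran from 0 to 1 at day 0, 0 to 1 at day 4, 0 to 1 at day 7 and 1 to 1 at day 14, and the wild-type counts from 8 to 14 at day 4 and 11 to 14 at day 7; an arm left with 1 library was assumed to vary like the others. The cause of these moves was not tested.

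With the replicate block, which pairs the genotypes, the genotype counts were 0, 1, 2 and 1 at days 0, 4, 7 and 14, so the pairing changed no genotype call; the counts with time were 14, 15 and 19 in wild type and 15 in the labelled knockout. Across days, same-numbered libraries were correlated only between wild-type day 0 and each later day (-0.0472 to 0.229). Whether the numbers also pair libraries over time was thus not settled. In the comparisons with time the block (limma) added Wnt11 in wild type at day 14 (0.58, adjusted p = 0.0496). It also added Wnt7b (-0.65, 0.0268) and Fzd2 (-0.8, 0.00584) in wild type at day 7. In the labelled knockout at day 14 it added Wnt10a (-0.76, 0.047) and Fzd2 (-1.11, 0.00279).

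Without the libraries whose titles name day 3, an alternative chosen after seeing the data, Wnt11 at day 4 was -2.24 (adjusted p = 0.0114) and the day 4 counts were 1 between genotypes and 11 with time. Reads limit the low members: Wif1, Wnt3a and Wnt16 never exceeded 65 reads a library. Over all genes, the day 0 genotype count was 347 as reported and 8 in a fit of the compared groups alone.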
